A study of Mus musculus with 5 samples.

Results

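The epidermal keratins were described here in keratinocytes that were isolated from skin wounds of mice at day 5 of repair. They comprise 10 genes, chosen by name: the basal keratins Krt5, Krt14 and Krt15, the suprabasal keratins Krt1, Krt10 and Krt2, and the wound-induced keratins Krt6a, Krt6b, Krt16 and Krt17. All 10 were found among the 10664 genes of the comparison. Mutant mice carried K14Cre-ER with Nrf2 flox/flox alleles (cKO, 2 samples, numbered 2 and 3), and their WT littermates carried K14Cre-ER with Nrf2 +/+ alleles (3 samples). Both genotypes thus carry the inducible Cre, which is driven by the promoter of keratin 14, itself one of the genes described. The labels do not give the inducing agent, or say whether the samples came from separate mice. Cells were sorted as live, negative for a mix of blood lineage antibodies and positive for CD49f, the integrin alpha 6 chain encoded by Itga6.

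Keratins form the intermediate filaments of epithelial cells, and each filament is built from pairs of an acidic type I and a basic type II chain. In the epidermis, basal cells make KRT5 with KRT14, and cells that leave the basal layer switch to KRT1 with KRT10, while KRT2 appears in the uppermost living layers. At the edge of a wound, keratinocytes switch on KRT6, KRT16 and KRT17, which serve as markers of the activated state. NRF2, the transcription factor encoded by the targeted gene Nfe2l2, controls antioxidant genes in these cells.

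Among the 10 keratins Krt2 was the 1 gene that changed past the threshold, and it was 16.2-fold higher in cKO than in WT. Krt6a and Krt6b had lower values in cKO that did not pass. Krt1 and Krt10, the most abundant of the 10, had values near 0 on the log2 scale, as did Krt5, Krt14 and Krt16. These values come from a single comparison of the genotypes made by the authors, with 1 log2 fold change, mean level, p-value and adjusted p per gene, and values of single samples were not analysed here. A gene was called where its adjusted p in the authors' deposited table was under 0.05. By that rule 2.61% of all genes were called in either direction, 0.459% as higher and 2.15% as lower in cKO. Of the 10 keratins 1 was called higher and 0 lower.

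The immediate upstream sequences of Krt2, which changed, and of Krt10, the type I keratin that KRT2 pairs with and which was not called, are shown from RefSeq (GRCm38.p6, the mm10 build). Each line holds the 250 bases before the transcription start on the minus strand, from chr15:101818170-101818419 for Krt2 and chr11:99389365-99389614 for Krt10. Capitals mark matches to any of the 3 motifs searched.
Krt2: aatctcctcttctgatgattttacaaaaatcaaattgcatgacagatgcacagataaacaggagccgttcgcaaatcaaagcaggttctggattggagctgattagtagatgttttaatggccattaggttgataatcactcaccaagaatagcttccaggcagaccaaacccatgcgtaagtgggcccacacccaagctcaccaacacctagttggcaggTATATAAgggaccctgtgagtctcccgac
Krt10: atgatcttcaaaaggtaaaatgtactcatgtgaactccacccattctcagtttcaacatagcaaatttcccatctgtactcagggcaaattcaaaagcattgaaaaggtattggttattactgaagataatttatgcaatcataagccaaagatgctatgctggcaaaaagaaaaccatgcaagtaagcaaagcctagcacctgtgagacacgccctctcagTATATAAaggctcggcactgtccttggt
The motifs were searched on both strands, with overlaps allowed. They were TGACNNNGC, the core of the antioxidant response element that NRF2 binds, TGANTCA, the AP-1 element that part of that core resembles, and TATATAA, a form of the TATA box chosen after the sequences had been read. The TATA form was present once in each of the sequences shown, 0 times in the window of Krt5, and in 3.04% of 32851 upstream windows of 250 bases in the table. Since it was chosen from the sequences shown, its presence in both was fixed beforehand and is no test against other windows. By symbol 4 of the 10 keratins matched the table, Krt2, Krt10, Krt5 and Krt14. The window listed for Krt14 lies inside the gene as GENCODE vM21 places it, so its matches are not given. The antioxidant core was found 0 times in the windows of Krt2, Krt10 and Krt5, and in 10.2% of all windows. The AP-1 element was also found 0 times in those of Krt2, Krt10 and Krt5, and in 6.75% of all windows. A match or its lack describes these letters alone.

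Levels are given as deposited, in CPM (values scaled to a common library total; the title of the authors' table also names TPM), and as a level implied for each genotype. The implied levels follow from the mean level and the fold change if both genotypes weigh alike in the mean, and they carry no error of their own. Levels of keratins are compared with each other after division by transcript length in kilobases (kb), unless stated. Level cutoffs, comparisons with called genes, marker sums and shares of all genes use CPM without that division. If the deposited values were TPM, the division would correct for length a second time. The approximate standard error (SE) of each fold change was worked out from its fold change and p-value in the authors' deposited table. It lay between 0.52 and 0.71 on the log2 scale for the 10 keratins, and the 95% intervals below are built on it. Across genes this SE followed the fold change, so the intervals do not show how far the samples of a genotype agreed. Whether these intervals hold for these data was not tested.

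The suprabasal keratins had positive values throughout, with 1 of 3 called. Krt2 (ENSMUSG00000064201, chromosome 15, 101810689 to 101818169, minus strand, mm10) had a mean level of 12.7 CPM, and its implied level was 23.8 CPM in cKO against 1.47 CPM in WT. Its log2 fold change was 4.02 (approximate SE 0.70, 95% interval 2.64 to 5.39) with an adjusted p of 6.62e-06 in the authors' deposited table. On the linear scale that interval runs from 6.23-fold to 41.9-fold. Krt2 was the keratin with the lowest level of the 10 per kb in both genotypes. Of the 49 genes called higher in cKO, it ranked number 5 by p-value and number 8 by fold change. Among those 49 genes 5, Krt2 included, had a mean level in CPM at or above its own, and 1 of the 5 had a larger fold change.

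Krt10, the type I keratin of the differentiating layers (chromosome 11, 99385254 to 99389364, minus strand, mm10), had an implied level of 17714 CPM in cKO against 13809 CPM in WT. Its log2 fold change was 0.36 (95% interval -0.84 to 1.55, adjusted p = 1 in the authors' deposited table). Krt1, its type II partner, had an implied level of 5299 CPM in cKO against 4395 CPM in WT. The log2 fold change of Krt1 was 0.27 (95% interval -0.91 to 1.45, adjusted p = 1 in the authors' deposited table). Values of Krt1 and Krt10 thus lay 0.09 apart on the log2 scale, whereas Krt2 lay 3.66 above Krt10. Per kb, the implied ratio of Krt1 to Krt10 was 0.255 in cKO and 0.271 in WT, and that of Krt2 to Krt10 was 0.00108 in cKO and 8.56e-05 in WT.

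**Figure D1:**
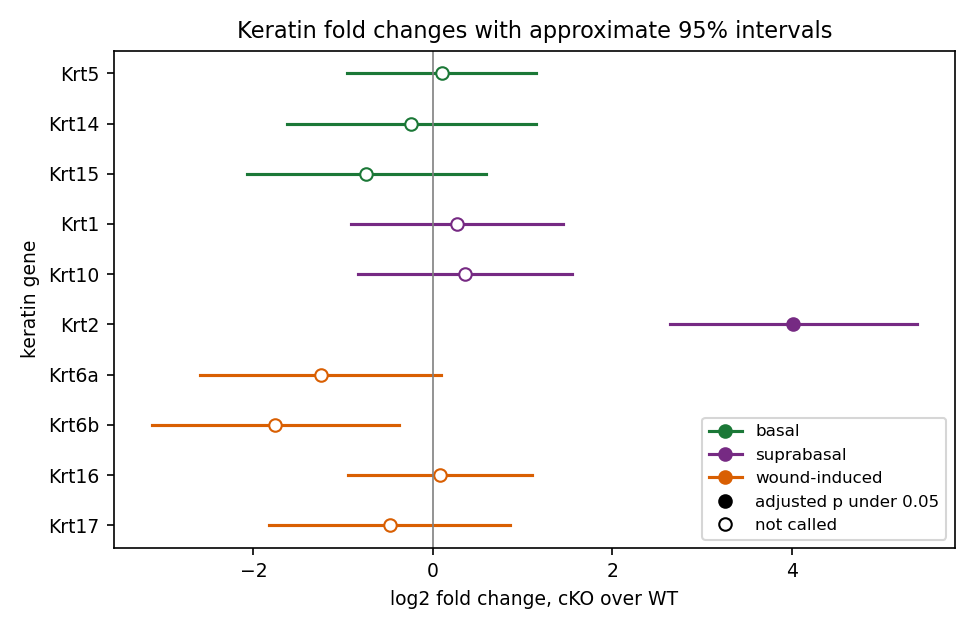
Log2 fold change of each keratin in cKO over WT (x axis) by gene (y axis), in the colours of the 3 classes; circles are the deposited values, lines the approximate 95% intervals, and the filled circle is the called gene. Krt2 lies at 4.02 with an interval from 2.64 to 5.39, and the intervals of the other genes cross 0, except that of Krt6b, which ends at -0.38.

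The wound-induced keratins had 3 negative values and 1 positive value, and 0 of 4 were called. Krt6b, a type II keratin (chromosome 15, 101676023 to 101680287, minus strand, mm10), had an implied level of 57.2 CPM in cKO against 193 CPM in WT. Its log2 fold change was -1.76 (95% interval -3.13 to -0.38) with an unadjusted p of 0.0122 and an adjusted p of 0.245 in the authors' deposited table. Krt6a, which lies 9.62 kb from Krt6b on the same strand (101689910 to 101694307), had an implied level of 118 CPM in cKO against 282 CPM in WT. The log2 fold change of Krt6a was -1.25 (95% interval -2.60 to 0.09) with an adjusted p of 0.708 in the authors' deposited table. Among the 1986 genes at a mean level of 100 CPM or more, Krt6b ranked number 9 and Krt6a number 14 from the most negative log2 fold change.

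The type I keratins of the wound edge stood closer to 0. Krt16, the usual partner of KRT6, had an implied level of 540 CPM in cKO against 511 CPM in WT and a log2 fold change of 0.08 (95% interval -0.94 to 1.10, adjusted p = 1 in the authors' deposited table). Krt17, which lies 7.31 kb from Krt16 on chromosome 11, had an implied level of 217 CPM in cKO against 302 CPM in WT. Its log2 fold change was -0.48 (95% interval -1.82 to 0.86, adjusted p = 1 in the authors' deposited table). Per kb, Krt6a stood at 0.151 of the implied level of Krt16 in cKO and at 0.379 in WT, and Krt6b at 0.0742 of it in cKO and at 0.265 in WT. The log2 fold change of Krt6a was 1.33 below that of Krt16, and that of Krt6b was 1.84 below it. These differences between genes were not tested, since the samples behind them are shared and not separately given.

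Krt6a and Krt6b have nearly the same sequence, so the authors' counting may have divided reads between them, and their separate values are uncertain. Their coding sequences were identical at 1622 of 1659 aligned bases (97.8%), with a longest identical run of 280 bases. The 100 aligned coding bases with the most differences, 14 of 100, are shown from GENCODE vM21 on mm10 to give where reads could tell them apart. They are coding bases 771 to 870 of each gene, across an exon junction within chr15:101692490-101692746 for Krt6a and chr15:101678309-101678565 for Krt6b, both on the minus strand, and capitals mark the bases that differ.
Krt6a: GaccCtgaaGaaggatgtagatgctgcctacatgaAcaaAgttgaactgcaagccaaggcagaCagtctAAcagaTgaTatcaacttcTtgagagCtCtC
Krt6b: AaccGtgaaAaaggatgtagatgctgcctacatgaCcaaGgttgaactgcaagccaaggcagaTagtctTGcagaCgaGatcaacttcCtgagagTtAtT
Of all stretches of 50 bases, the read length, in the Krt6a transcript, 43.6% occurred in Krt6b as well, and 49.5% occurred in some other annotated gene. For Krt16 the share found in another gene was 37.6%, of which the largest part, 25.2% of all its stretches, was shared with the gene model Gm11597, and 11.4% of the stretches of Krt14 occurred in Krt16. No stretch of Krt2, Krt1 or Krt10 occurred in another gene, at 0% for each. The reads were paired, and these shares take each stretch alone, so they do not give the share of read pairs that could be misplaced. Other annotated genes overlap Krt5, Krt10, Krt6a and Krt6b in position and 0 overlap Krt2, and the sources used here do not say whether the authors' counting used the strand.

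**Figure D2:**
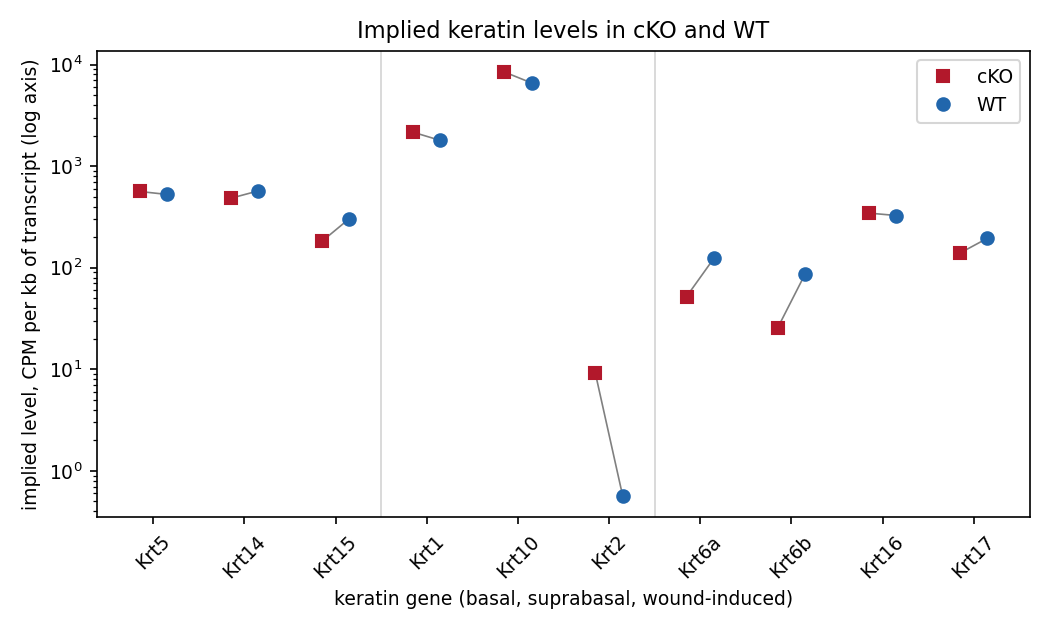
Implied level in CPM per kb of transcript (y axis, log scale) of each keratin (x axis), with cKO as squares on the left of each pair and WT as circles on the right; the levels are derived from the authors' mean level and fold change and have no error bars. Krt2 shows the steepest line, with its cKO square at 9.12 and its WT circle at 0.564 CPM per kb, and the lines of Krt6a and Krt6b slope the other way.

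The basal keratins had values on either side of 0, and 0 of 3 were called. Krt5, the type II keratin of the basal layer (chromosome 15, 101707070 to 101712898, minus strand, mm10), had an implied level of 1238 CPM in cKO against 1158 CPM in WT. Its log2 fold change was 0.10 (95% interval -0.96 to 1.15, adjusted p = 1 in the authors' deposited table). Krt14, its type I partner (chromosome 11, 100203162 to 100207548, minus strand, mm10), had an implied level of 820.3 CPM in cKO against 968 CPM in WT. The log2 fold change of Krt14 was -0.24 (95% interval -1.63 to 1.15, adjusted p = 1 in the authors' deposited table). Krt15, a type I keratin of basal cells and of the hair follicle bulge, had an implied level of 309 CPM in cKO against 517 CPM in WT. The value for Krt15 was -0.74 (95% interval -2.07 to 0.59, adjusted p = 1 in the authors' deposited table). Markers of hair follicles and sebaceous glands had 11 of 11 negative values beside it, with a median of -0.54. Their summed implied level was 1417 CPM in cKO against 1908 CPM in WT. Of them 2 were called lower, or 18.2%, against 2.15% of all genes. Both, Scd3 and Elovl3, are sebaceous lipid genes, and the follicle markers were not called. The part of these markers in the value of Krt15 was not tested.

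These misses do not show that the 9 uncalled keratins were alike in both genotypes. Among the 1986 genes at 100 CPM or more, 0.403% were called, and the smallest called change was 2.58 on the log2 scale, or 5.97-fold. The largest change not called among them was 2.23, so at these levels the calls were split by size of change alone. Changes of the size seen for Krt6a and Krt6b were thus smaller than any change called at such levels in the authors' deposited table. The median log2 fold change of those genes was 0.12, against 0.00 for all genes, and 66.6% of them had positive values. Relative to that median the values of Krt5 and Krt16 turn to -0.03 and -0.04, and the other 8 keep their sign.

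**Figure D3:**
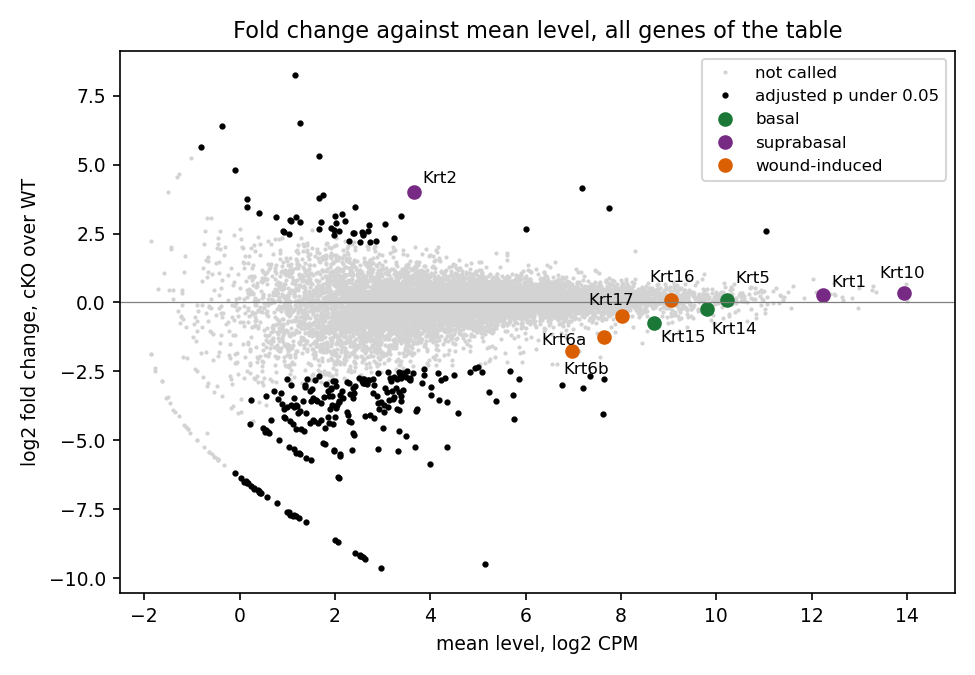
Log2 fold change in cKO over WT (y axis) against mean level in log2 CPM (x axis) for all 10664 genes, with uncalled genes in grey, called genes in black and the keratins coloured by class. Krt2 lies above the grey band at a low level, Krt1 and Krt10 lie near 0 at the highest levels, and Krt6a and Krt6b lie at the lower edge of the band.

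As a class, the suprabasal keratins made up most of the summed level of the 10 keratins, a sum that leaves out other keratins such as Krt77. Per kb, they held 85.6% of the summed implied level of the 10 genes in cKO and 79.7% in WT, the basal keratins 9.89% in cKO and 13.3% in WT, and the wound-induced keratins 4.53% in cKO and 6.96% in WT. The sum over the suprabasal genes was 1.27 times as high in cKO as in WT, that over the basal genes 0.877 times and that over the wound-induced genes 0.768 times. Before division by length, Krt10 made up 76.9% of the suprabasal sum in cKO and 75.9% in WT, and Krt1 23.0% and 24.1%. Krt2, the called gene, made up 0.103% in cKO and 0.0081% in WT. The class sum thus follows Krt10 and Krt1, which were not called. No error can be given for these sums, and they were not tested. Together the 10 keratins accounted for 2.51% of the summed implied CPM of all genes in cKO and 2.31% in WT. In bulk samples, fewer cells of a layer and less RNA per cell cannot be told apart.

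**Figure D4:**
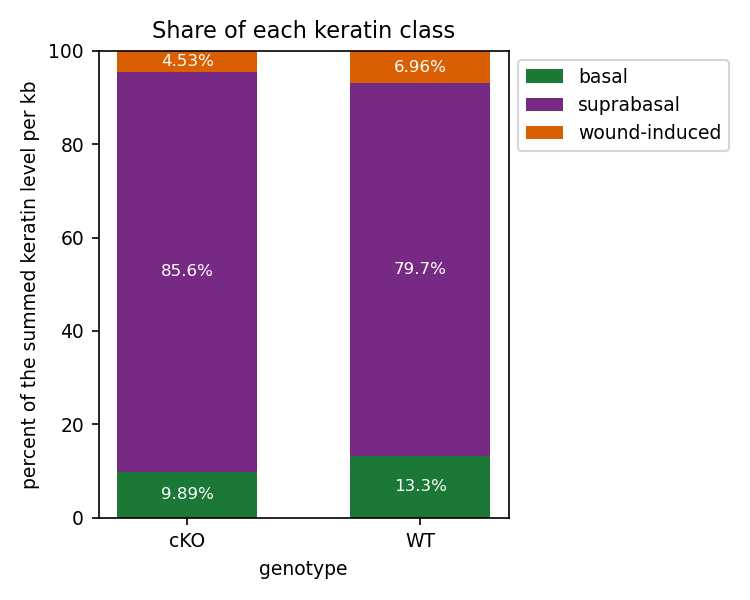
Share of the summed implied level per kb of the 10 keratins (y axis, percent) held by each class, with cKO on the left and WT on the right; shares have no error bars, since no value per sample was analysed. The suprabasal class, nearly all of it Krt10 and Krt1, holds 85.6% in cKO and 79.7% in WT.

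By mean level per kb, the order of the keratins from high to low was Krt10 (7527), Krt1 (1974), Krt5 (545), Krt14 (527), Krt16 (336), Krt15 (243), Krt17 (167), Krt6a (87.9), Krt6b (56.0) and Krt2 (4.84 CPM per kb). No spread between samples is available to separate neighbours in that order, of which Krt5 and Krt14 were the closest. Krt10 stood 14.3 times as high as Krt14, or 17.5 times in cKO and 11.6 times in WT, in cells sorted for CD49f, which is strongest on basal cells. Itga6, which encodes CD49f, had a log2 fold change of -0.49 and an adjusted p of 1 in the authors' deposited table, at 467 CPM. All 6 keratinocyte markers examined were present, with values from -0.49 to 0.20 and 0 called. By chain type, the 5 type I genes on chromosome 11 ranged from -0.74 to 0.36 and the 5 type II genes on chromosome 15 from -1.76 to 4.02. The type II genes lie within 174.8 kb, with Krt6b, Krt6a and Krt5 side by side at one end and Krt2 27.3 kb from Krt1 at the other. Krt2 and Krt1, which are near neighbours, had values of 4.02 and 0.27 in the authors' deposited table.

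Outside these 10, the table held 7 other keratins, of which 0 were called, with 3 positive and 4 negative values. Krt77, a type II keratin gene 7.94 kb from Krt1, had a mean level per kb that was 0.756 of that of Krt10. It had an implied level of 19231 CPM in cKO against 14110 CPM in WT and a log2 fold change of 0.45 (adjusted p = 1 in the authors' deposited table). Krt79, a keratin of the hair follicle opening and sebaceous duct, had a value of -0.85 and Krt80 a value of 0.39, per the authors' deposited table. Krt27, a keratin of the inner root sheath of hair, and Krt8, a keratin of simple epithelia, had the most negative values, -5.89 and -4.60 in the authors' deposited table. Their mean levels were 0.797 and 0.472 CPM, and neither passed (adjusted p = 0.0845 and 0.696 in the authors' deposited table).

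Genes that work with keratin filaments were examined as a list of 36 analysed genes. It held mainly desmosomal and cornified envelope proteins, linkers and transcription factors of the epidermis, with Vim, Lmna and Sfn beside them. Of these 1 was called higher and 0 lower, or 2.78%, near the share of all genes, and the median was 0.13 against 0.00 over all genes. The called gene was Dsc2, a desmosomal cadherin, at 145 CPM, with a log2 fold change of 4.15 and an adjusted p of 9.98e-07 in the authors' deposited table. Desmoplakin, Dsp, which ties keratin filaments to desmosomes, had 0.37, and Lor, which encodes the envelope protein loricrin, had -0.64 in the authors' deposited table (adjusted p = 1 for each). Values for Trp63, a master regulator of the basal layer, and Klf4, a regulator of late differentiation, were 0.20 and -0.18 in the authors' deposited table (adjusted p = 1 for each).

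Markers of other cells differed between the genotypes in the same comparison. Of 10 fibroblast markers listed, 5 were among the genes of the comparison, and 5 of these 5 were called lower. They had a median of -3.35 and a summed implied level of 112 CPM in cKO against 1112 CPM in WT. Endothelial markers had 7 of 9 called lower, of 12 listed, with a median of -3.64 and sums of 17.0 CPM in cKO against 164 CPM in WT. These counts cover only genes that passed the authors' filter. Some may have passed it through WT alone, where they are higher, which was not tested. Of the melanocyte and Schwann markers 3 of 5 were called lower, with sums of 194 CPM in cKO against 279 CPM in WT. The 3 were the melanocyte genes Dct, Mlana and Tyrp1. The Schwann markers Mbp (0.26) and Pmp22 (-0.17) were not called. Of the neutrophil markers 2 of 3 were called lower, with sums of 40.3 CPM in cKO against 185 CPM in WT, while pericyte and muscle markers had 0 of 6 called and a median of -1.27. Of the macrophage and dendritic markers 0 of 3 were called, and the 1 analysed lymphocyte marker had -1.09. The part of these other cells in the keratin values was not tested. The summed implied level of the keratinocyte markers, Krt5 and Krt14 among them, was 4916 CPM in cKO against 4981 CPM in WT. The targeted gene Nfe2l2 had a log2 fold change of -1.99 at 189 CPM, with an adjusted p of 0.126 in the authors' deposited table, so its lower value in cKO did not pass.

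**Figure D5:**
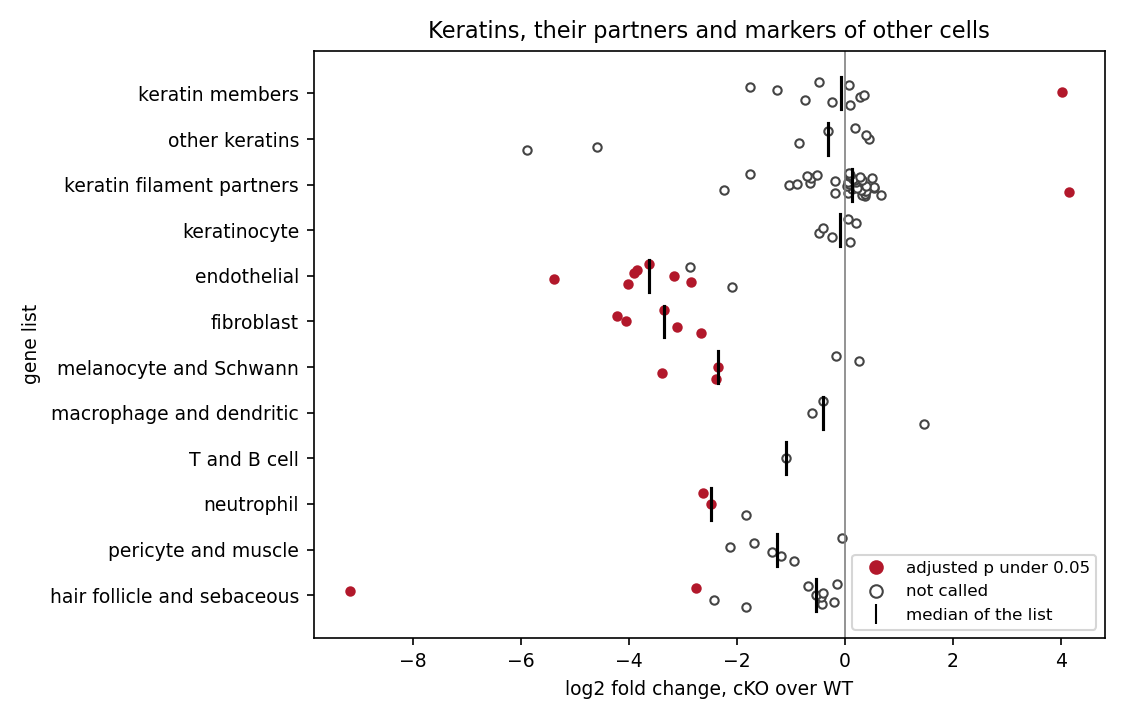
Log2 fold change in cKO over WT (x axis) for the genes of each list (y axis), with called genes as filled red circles, uncalled genes as open circles and the median of each list as a vertical bar. Krt2 at 4.02 and Dsc2 at 4.15 are the called genes among the keratins and their partners, the lowest values there are uncalled (Krt6b at -1.76 among the 10 keratins and Pkp2 at -2.24 among the partners), and the fibroblast and endothelial markers all lie below 0.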

How the data were processed

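RNA of sorted wound keratinocytes (2 cKO and 3 WT samples) was amplified with a Nugen Trio kit and sequenced as paired-end reads, per the labels' protocols. Trimmomatic 0.35, STAR 2.6.0c, RSEM and the build mm10 were used, per the submitters' processing notes. For each of 10664 genes the authors deposited a p-value, its adjusted value (FDR), the log2 fold change and the mean log2 CPM, per the file headers. The tool behind them and the libraries that entered are not given in the sources used here. The authors' deposited p-values followed the fold change, at 0.556 for Krt10 (0.36), 0.550 for Dsp (0.37) and 0.525 for Krt80 (0.39). The p-values thus do not measure the spread of each gene between samples, and any spread behind them may be technical. Depth per sample is not known from this table.

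Deposited log2 fold changes run WT over cKO, read from text notes beside 2 negative entries of a second sheet with the 278 called genes, and were turned round. The deposited adjusted p equalled a Benjamini-Hochberg adjustment of the deposited p-value within 7.17e-15, and 2 to the power of the level summed to 1.00436e+06. Across genes the level rose with transcript length (Spearman rho 0.311 over 10655 genes, a description), and lengths are those of the longest protein-coding transcript in GENCODE vM21 (mm10), which also gave symbols and positions. Approximate SEs are the log2 fold change over the normal quantile of its p-value (2-sided). The formula was checked on simulated data together with the adjustments, which does not test it on the authors' p-values. For keratins near 0 the SE differed with the fold change. It was 0.521 for Krt16 (log2 fold change 0.08), 0.538 for Krt5 (0.10) and 0.610 for Krt10 (0.36), against 0.709 for Krt14 (-0.24). Whether the intervals built on these SEs hold for these data was not tested. SciPy 1.17.1, pandas 2.3.3 and NumPy 2.4.6 under Python 3.11.15 made the values, and matplotlib 3.10.9 the plots.

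The keratins and lists were chosen with earlier results of these data known. All 10 keratins are named, with any other keratin or partner gene that was called, other keratins with the largest changes or levels, and Nfe2l2. Itga6, Dsp, Lor, Trp63 and Klf4 were added after their values were seen, for their roles. So were Scd3, Elovl3, Dct, Mlana, Tyrp1, Mbp and Pmp22, to show which markers of mixed lists were called or not. Vim, Lmna and Sfn are named only to describe the partner list. Some genes within that rule are left unnamed. No gene is named for likeness to the keratins, since 1 comparison gives no pattern.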

Additional observations from a re-analysis of the deposited data

How the results depend on the processing

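Krt2 stayed called under all 4 alternative rules, with 1 keratin called in each. The stricter threshold, the Benjamini-Yekutieli adjustment and the fold rule can only remove calls. Only the 5 CPM filter could have added another keratin, and it did not. The adjusted p of Krt2 was 7.30e-06 among genes at a mean level of 5 CPM or more and 6.52e-05 with the Benjamini-Yekutieli adjustment. Over all genes the calls numbered 104 with the 5 CPM filter, 152 at a threshold of 0.01 and 116 with the Benjamini-Yekutieli adjustment, against 278. An absolute log2 fold change of at least 1 left 278 and could not remove any, since the smallest called change was 2.20. The stricter threshold and adjustment lower the count by construction, and for the filter the cause was not tested. Subtracting the median of all genes or of genes at 100 CPM or more (0.12) left Krt2 at 4.01 and 3.89. Weighting the genotypes by their number of libraries raised both implied levels of Krt2 by 21.5%, to 29.0 CPM in cKO and 1.79 CPM in WT, and moved those of the other keratins by -9.80% to 2.54%. It put the suprabasal share of the summed level per kb at 86.0% in cKO and 80.4% in WT, against 85.6% in cKO and 79.7% in WT with equal weights.

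No paired analysis was possible because values of single samples were not analysed here, and for the same reason leaving out replicates was not run. Depth is unknown, and at 100 CPM or more no change under 2.58 on the log2 scale was called. Genes with close fold changes had close approximate SEs, also at unlike levels. Krt10 (0.36), Dsp (0.37) and Krt80 (0.39) had SEs of 0.610, 0.610 and 0.613 at 15762, 10389 and 408 CPM. Itga6 (-0.49) and Krt17 (-0.48) had SEs of 0.684 and 0.685. The SEs thus followed the fold change and do not show the spread of each gene. Whether the samples agree for a keratin, Krt2 included, cannot be read from them.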
